A study of Mus musculus with 6 samples.

Results

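The genes described here belong to the Wnt pathway and were chosen with earlier results of these data known. They are 58 genes listed by their known function: Wnt ligands, R-spondins, receptors, secreted inhibitors, components of the beta-catenin machinery, TCF/LEF transcription factors and feedback targets. Of these, 57 had a row carrying only their own gene symbol, out of 22180 genes with such a row, and 54 lay above the limit set for dim genes, out of 16724 genes tested. Tcf7, a TCF/LEF factor of T cells and other tissues, had no such row. Wnt16, Fzd10 and Lgr5 lay below the limit, a mean log2 signal of 5.02 over the 6 arrays, and are given as values only.

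RNA from E12.5 mouse cortex was hybridised to Affymetrix whole-transcript arrays, 1 embryo and 1 array per sample. There were 3 Lats1/Lats2 double knock-out (DKO) embryos, genotype Lats1F/F;Lats2F/F;Nestin-Cre, and 3 embryos labelled control. The labels do not give the Lats alleles or the Cre status of the controls. Lats1 and Lats2 are the Hippo pathway kinases that restrain the coactivators YAP and TAZ. F marks a loxP-flanked allele, and Nestin-Cre recombines such alleles mainly in neural progenitors and the cells they give rise to. The dissected tissue also holds vessel, blood and meningeal cells, and which cells had recombined was not measured here. The comparison asked which transcripts of the pathway differed between DKO and control cortex.

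Wnt proteins are acylated by Porcn, secreted, and bind Frizzled receptors together with the co-receptors Lrp5 and Lrp6. In the canonical branch this stops the Axin and Apc complex from destroying beta-catenin, which then acts with TCF/LEF factors on target genes, among them Axin2, Nkd1, Znrf3 and Rnf43, whose products feed back on the pathway. R-spondins bind Lgr receptors and keep Znrf3 and Rnf43 from removing Frizzled from the cell surface. In the early cortex a source of several Wnt ligands and R-spondins is the cortical hem. It is a strip of neuroepithelium at the medial edge that patterns the hippocampus and borders the choroid plexus.

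For the genes around which the results turn, the 250 bases upstream of a RefSeq transcription start (build GRCm38.p6, plus strand) are shown first: Fzd7 had the smallest p of all members, Wnt8b the largest difference of the hem ligands, and Lef1 the smallest p among members with a lower DKO mean. Capitals mark a TCF/LEF core motif, searched on both strands in 4 spellings, which were CTTTGAA and then CTTTGAT and also CTTTGTA and finally CTTTGTT.
Fzd7, chr1:59481897-59482146: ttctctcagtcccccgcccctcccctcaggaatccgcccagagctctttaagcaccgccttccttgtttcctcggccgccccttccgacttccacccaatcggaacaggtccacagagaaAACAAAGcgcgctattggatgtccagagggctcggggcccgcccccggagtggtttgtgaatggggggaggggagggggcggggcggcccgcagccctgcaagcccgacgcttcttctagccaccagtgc
Wnt8b, chr19:44493222-44493471: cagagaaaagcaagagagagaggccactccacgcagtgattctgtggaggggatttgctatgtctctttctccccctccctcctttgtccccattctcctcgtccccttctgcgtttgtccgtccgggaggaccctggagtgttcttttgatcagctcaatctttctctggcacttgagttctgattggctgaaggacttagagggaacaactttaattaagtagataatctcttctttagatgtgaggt
Lef1, chr3:131110047-131110296: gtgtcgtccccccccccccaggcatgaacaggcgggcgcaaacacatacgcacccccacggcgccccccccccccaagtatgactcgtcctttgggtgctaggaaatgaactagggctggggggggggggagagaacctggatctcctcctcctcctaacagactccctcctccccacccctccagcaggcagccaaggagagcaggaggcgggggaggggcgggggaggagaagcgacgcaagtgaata
Fzd7 held 1 match on the reverse strand, beginning 130 bases before the start, and the other windows shown held none. The Lef1 window is the most upstream of 4 listed for that gene, of which another held 1 match. RefSeq windows were at hand for 41 of the members, 51 windows in all, and 6 of the 51 (11.8%) held a TCF/LEF match, against 14.8% of all 32851 windows of the table. The core motif of the TEAD factors, through which YAP and TAZ act, was searched on both strands as GGAATG. It stood in 1 of the 51 windows (2.0%), that of Lgr4, against 12.6% of all windows. A match or its absence describes these letters only.

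Several features of the arrays bear on what follows. Lats1 stood at 7.82, 7.82 and 7.74 in DKO cortex and at 8.81, 8.34 and 8.98 in control cortex. All DKO arrays lay below all controls, with a difference of -0.91 on the log2 scale (SE 0.14), and limma gave an adjusted p of 0.0189. Without control 1, control 3, DKO 1 or DKO 3 its adjusted p was above the threshold and at most 0.0875. Lats2 stood at 7.36, 7.18 and 7.27 in DKO cortex and at 7.16, 6.84 and 7.11 in control cortex. Its DKO arrays all lay above its controls, with a difference of 0.24 (SE 0.10, limma adjusted p 0.285). The sources used here do not say which part of either gene the probes cover, so neither row checks the deletion itself. Over all rows the arrays fell into 2 sets that cut across genotype: DKO 1, DKO 2 and control 2 correlated with each other, as did DKO 3, control 1 and control 3, with r of 0.991 to 0.994 within the sets and 0.978 to 0.985 between them. The same sets separated by Y-linked genes (Eif2s3y, Kdm5d and Uty), whose mean log2 signal was 8.28, 8.07 and 8.09 in the first set and 3.84, 3.89 and 3.80 in the second. What else distinguished the sets was not given, and differences within each set are given for the genes whose groups did not overlap, except Wnt1, Rspo4 and Lgr6, and for Wnt8b, Rspo1 and Rspo3. Of the cortical markers, 7 of 8 progenitor genes had a row. These 7 and all 7 neuron genes (among them Tbr1 and Neurod6) lay above the dim limit in the mean. Of the progenitor genes, 4 had lower means in DKO (Emx1, Emx2, Pax6 and Lhx2) and 3 higher means (Sox2, Nes and Hes1), with 0 called. The neuron genes had lower means in DKO (7 of 7, 0 called). Cells of a type being fewer and each holding less RNA cannot be told apart in such tissue samples.

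None of the 54 members tested passed the threshold. In limma's test over all 16724 genes, 0 of 54 members had an adjusted p under 0.05 in either direction, while 1.72% of all genes did (1.36% higher and 0.359% lower in DKO). At an unadjusted p under 0.05, 8 of the 54 members were higher and 8 lower in DKO, against 6.39% and 9.18% of all genes. The DKO and control arrays did not overlap, with DKO above, for 5 members, against 8.22% of all genes, and with DKO below for 10, against 13.4%. The median log2 fold change was -0.02 over the members and -0.03 over all genes tested, of which 6660 had higher and 10064 lower means in DKO. With exact permutation of 3 against 3 arrays the smallest possible two-sided p for a gene is 0.1, so that the test across all genes was used throughout. The differences that came nearest to the threshold were those of Fzd7 (adjusted p 0.0648), Wnt5a (0.068), Rspo2 (0.10) and Lef1 (0.115).

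**Figure D1:**
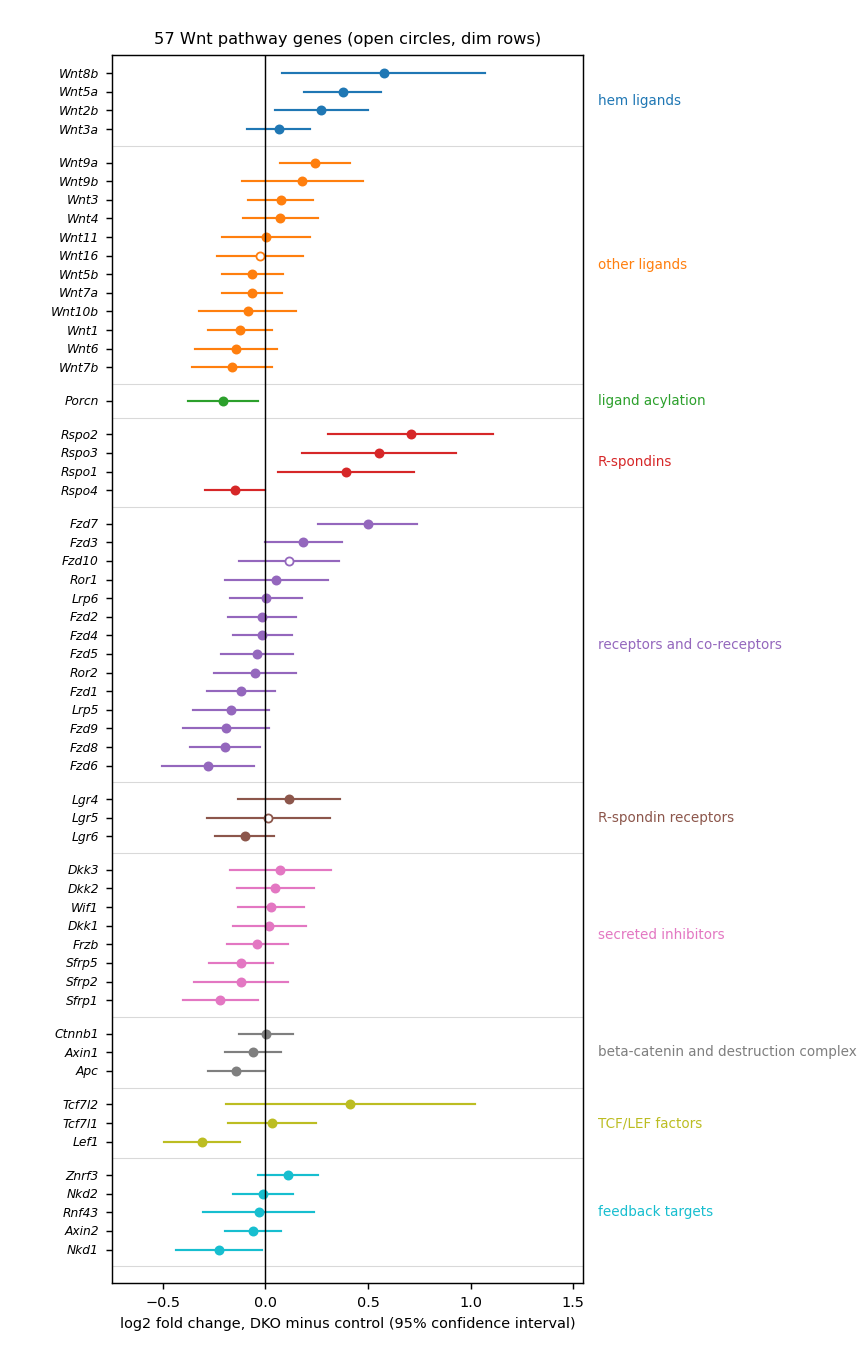
Log2 fold change (DKO minus control, horizontal axis) of the 57 Wnt pathway genes with a row, with 95% confidence intervals from limma, grouped and coloured by role. Open circles are genes below the limit for dim rows. Hem ligands and R-spondins 1 to 3 lie to the right of 0, Porcn lies to the left, and the remaining groups straddle it.

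Ligands of the cortical hem had higher means in DKO. All 4 did, with a median log2 fold change of 0.32, but 0 passed the adjusted threshold. At an unadjusted p under 0.05, 3 of the 4 were higher, against 6.39% of all genes. Wnt5a, a ligand best known for signalling that does not use beta-catenin, stood at 5.79, 5.77 and 5.57 in DKO arrays and at 5.30, 5.43 and 5.26 in control arrays. All DKO arrays lay above all control arrays, and the difference was 0.38 ± 0.08 (SE, adjusted p 0.068), a 1.30-fold higher signal. It was 0.29 within the set of DKO 3, control 1 and control 3 and 0.35 within the set of DKO 1, DKO 2 and control 2, both below the pooled value. With array weights its adjusted p was 0.0489, and over the 14 alternatives in which it was tested it ranged up to 0.227. Wnt8b, a ligand of the hem and the hippocampal field next to it, stood at 7.65, 7.11 and 6.79 in DKO and at 6.32, 6.92 and 6.58 in control arrays. DKO 1 was highest, and DKO 3 lay below control 2, so the groups overlapped. The difference of 0.58 had a wide error (SE 0.22, 95% interval 0.08 to 1.07, adjusted p 0.252). It was 0.34 and 0.46 within those sets, again both below the pooled value, and 0.35 without DKO 1 (adjusted p 0.463).

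Wnt2b stood at 6.43, 6.55 and 6.47 in DKO and at 6.04, 6.43 and 6.17 in control arrays, with DKO 1 and control 2 equal to 2 decimals (log2 fold change 0.27 ± 0.10 SE, adjusted p 0.238). Within the set of DKO 3, control 1 and control 3 it differed by 0.36 and within the other set by 0.07. Wnt3a, the canonical ligand required for hippocampal growth, differed least, at 5.22 ± 0.05 in DKO and 5.16 ± 0.09 in control (SD, n = 3 each), with an interval of -0.09 to 0.22 for the difference. Its row lay close to the dim limit. Within the set of DKO 1, DKO 2 and control 2, Wnt3a differed by 0.006. The mean level of the 4 hem ligands was 6.27, 6.17 and 6.0 in DKO arrays and 5.68, 6.01 and 5.79 in control arrays, so that DKO 3 and control 2 were about level.

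R-spondins 1 to 3 also had higher means in DKO. Rspo2 stood at 7.15, 6.91 and 6.81 in DKO and at 6.11, 6.68 and 5.96 in control arrays. The groups did not overlap, although control 2 came close to DKO 3. Its difference of 0.71 ± 0.18 (SE), a 1.63-fold higher signal, was the largest of the members (adjusted p 0.10). Without control 2 it was 0.92 with an adjusted p of 0.0115, and without control 3 it was 0.56 with an adjusted p of 0.262. Rspo3 stood at 8.10, 8.21 and 7.58 in DKO and at 7.27, 7.63 and 7.34 in control arrays, with DKO 3 below control 2 (log2 fold change 0.55 ± 0.16 SE, adjusted p 0.158). Without DKO 3 it was 0.74 and passed the threshold (adjusted p 0.0386). Rspo1 stood at 7.52, 7.87 and 7.51 in DKO and at 7.20, 7.53 and 6.99 in control arrays, again with control 2 among the DKO values (0.39 ± 0.15 SE, adjusted p 0.245).

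Rspo4, the R-spondin known for nail growth, went the other way, at 5.19 ± 0.07 in DKO and 5.33 ± 0.03 in control (SD, n = 3 each, adjusted p 0.315). Thus 3 of 4 R-spondins had higher means, with a median of 0.47, and 0 of 4 were called. Within the set of DKO 3, control 1 and control 3 the differences were 0.41 for Rspo1, 0.78 for Rspo2 and 0.28 for Rspo3. Within the other set they were 0.17, 0.35 and 0.52 in that order.

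Most, but not all, of the other genes that mark the hem and the choroid plexus had higher means. Of 7 hem markers outside the Wnt pathway, 5 had higher means and 2 were called, Lmx1a, which specifies roof plate and hem cells, at 0.47 ± 0.06 (SE, adjusted p 0.00982) and Bmp6, a BMP ligand, at 0.63 ± 0.12 (SE, adjusted p 0.0391). Bmp5 and Bmp7 had slightly lower means (-0.048 and -0.006). Within the 2 sets of arrays 4 of the 7 hem markers were higher in both and 3 had opposite signs. The mean log2 level of the 7 lay between 6.03 and 6.37 in DKO arrays and between 5.80 and 5.97 in control arrays. Of 8 choroid plexus markers above the dim limit 7 had higher means, and Ttr, the thyroid hormone carrier, and Sostdc1, a secreted BMP and Wnt antagonist, were called. Ttr stood at 8.84, 10.25 and 8.33 in DKO and at 6.74, 7.21 and 6.74 in control arrays, and Sostdc1 at 6.31, 6.39 and 6.18 against 5.72, 5.99 and 5.76. Ttr differed by 2.24, Otx2 by 1.03 (adjusted p 0.191) and Sostdc1 by 0.47. Folr1, Slc4a5, Aqp1 and Kcne2 differed by 0.256, 0.096, 0.055 and 0.042 with overlapping groups, and Kl had a lower mean (-0.155). The mean level of the choroid plexus list was 6.06 to 6.55 in DKO and 5.72 to 5.90 in control arrays. Clic6, a chloride channel gene of that epithelium, lay below the dim limit. Among the control arrays, control 2 had the highest mean level of the hem ligands, the R-spondins and the choroid plexus list, while the hem list was highest in control 1 (5.97, against 5.92 in control 2). Among the DKO arrays the hem list was lowest in DKO 2, and the hem ligands and R-spondins in DKO 3. All 8 markers of the ventral telencephalon, the region next to the cortex that makes interneurons, had lower means in DKO (0 called), among them Dlx2 at -0.66 and Dlx5 at -0.47, and their mean level was 6.95 to 7.14 in DKO and 7.07 to 7.43 in control arrays. The part of these regions, as included in each dissection, in the ligand and R-spondin values was not tested.

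**Figure D2:**
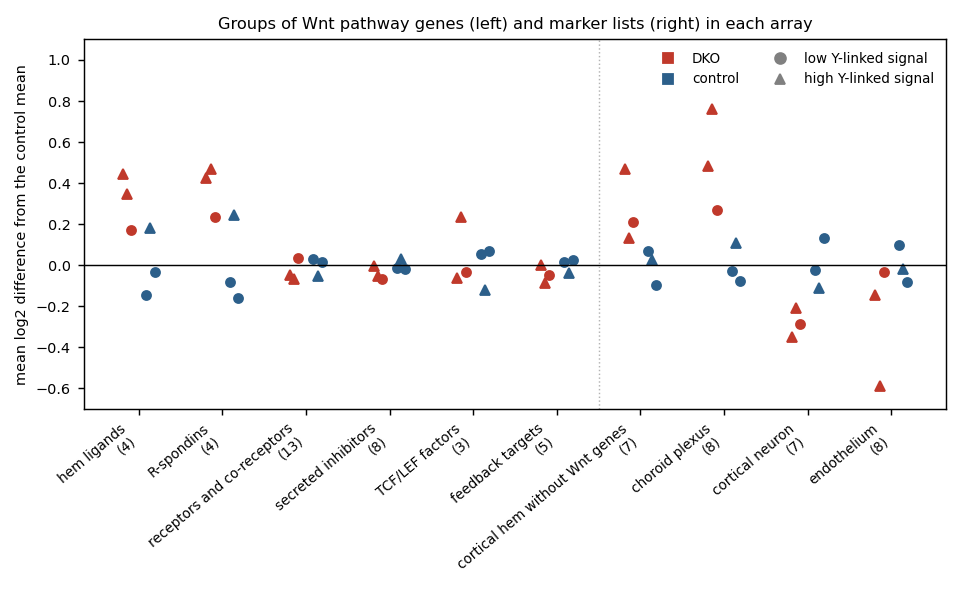
Mean log2 difference from the control mean (vertical axis) in each array for 6 groups of Wnt pathway genes and 4 lists of cell type markers, with the number of genes in brackets. Each point is an array; DKO is red and control blue, triangles are arrays with high and circles arrays with low Y-linked signal. Hem ligands and R-spondins lie highest in DKO 1 and DKO 2, and control 2 stands above the other controls in both.

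The remaining ligands lay on both sides of 0. Of 11 above the dim limit, 5 had higher and 6 lower means, 0 were called, and the log2 fold changes lay between -0.16 and 0.24 with a median of -0.06. Wnt9a stood at 5.95, 5.88 and 6.0 in DKO and at 5.81, 5.70 and 5.59 in control arrays. It was the only one of them with an unadjusted p under 0.05, and its groups did not overlap (0.24 ± 0.07 SE, adjusted p 0.174), with 0.30 within the set of DKO 3 and 0.21 within the other. Wnt7b, made by early cortical neurons, averaged 7.28 ± 0.15 in DKO and 7.44 ± 0.04 in control (SD, n = 3 each), a difference of -0.16 with an interval of -0.36 to 0.03. Wnt7a, made by ventricular zone progenitors, averaged 7.65 ± 0.03 in DKO and 7.71 ± 0.07 in control (SD, n = 3 each). The interval of its difference was -0.21 to 0.08.

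Wnt1, a ligand of the midbrain and dorsal midline, differed by -0.12 ± 0.07 (SE) and Wnt6, found in surface ectoderm, by -0.14 ± 0.09 (SE), with adjusted p of 0.443 and 0.497. Wnt3, Wnt4, Wnt5b, Wnt9b, Wnt10b and Wnt11 lay between -0.09 and 0.18. Wnt16 averaged 4.28 in DKO and 4.31 in control arrays, below the dim limit in both. Porcn, the acyltransferase that nearly every Wnt ligand needs, stood at 8.23, 8.24 and 8.06 in DKO and at 8.39, 8.45 and 8.31 in control arrays. Its DKO arrays all lay below its control arrays, with a difference of -0.21 ± 0.07 (SE, adjusted p 0.229), which was -0.29 within the set of DKO 3, control 1 and control 3 and -0.21 within the other.

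Among the receptors, 1 gene came near the threshold. Fzd7, a Frizzled of progenitor and stem cells, stood at 7.63, 7.43 and 7.86 in DKO and at 7.22, 7.09 and 7.12 in control arrays. All DKO arrays lay above all control arrays, and the log2 fold change of 0.50 ± 0.11 (SE), a 1.41-fold higher signal, had an adjusted p of 0.0648. Unlike R-spondins 1 to 3, which were lowest in DKO 3 among the DKO arrays, Fzd7 was highest there. It differed by 0.69 within the set of DKO 3, control 1 and control 3 and by 0.44 within the set of DKO 1, DKO 2 and control 2. It passed the threshold in 7 of 15 alternative fits, with adjusted p from 0.0197 without DKO 2 to 0.193 without control 3.

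The receptors as a group lay close to all genes. Of 13 receptors and co-receptors above the dim limit, 4 had higher and 9 lower means, 0 were called, and the median was -0.04, against -0.03 for all genes. Fzd6, a Frizzled of the planar polarity branch, stood at 6.05, 6.13 and 6.06 in DKO and at 6.38, 6.14 and 6.54 in control arrays. Its difference of -0.28 ± 0.10 (SE, adjusted p 0.225) was -0.41 within the set of DKO 3, control 1 and control 3 and -0.06 within the other set, and -0.19 overall without control 3. Fzd8, enriched in the early forebrain, averaged 9.53 ± 0.12 in DKO and 9.72 ± 0.05 in control (SD, n = 3 each, adjusted p 0.261), with differences of -0.09 within the set of DKO 3 and -0.21 within the other. Fzd3, needed for axon tracts, averaged 9.40 ± 0.08 in DKO and 9.22 ± 0.13 in control (SD, n = 3 each, adjusted p 0.33), with overlapping groups.

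Fzd1, Fzd2, Fzd4, Fzd5 and Fzd9 had log2 fold changes between -0.19 and -0.02. Of the co-receptors, Lrp6 differed by 0.00 with an interval of -0.17 to 0.18, and Lrp5 by -0.17 with an interval of -0.35 to 0.02. A further, dimmer row for Lrp6 differed by 0.18 (SE 0.11). Ror1 and Ror2, receptor kinases for Wnt5a, had differences of 0.05 and -0.05, each under its SE of 0.11 and 0.09. Fzd10 averaged 4.10 in DKO and 3.98 in control arrays, below the dim limit. Of the R-spondin receptors, Lgr4 averaged 7.27 ± 0.21 in DKO and 7.16 ± 0.11 in control (SD, n = 3 each), Lgr6 6.06 ± 0.02 in DKO and 6.16 ± 0.07 in control (SD, n = 3 each), and Lgr5, below the dim limit, 5.01 in DKO and 4.99 in control. Neither Lgr4 (adjusted p 0.668) nor Lgr6 (0.504) was called.

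**Figure D3:**
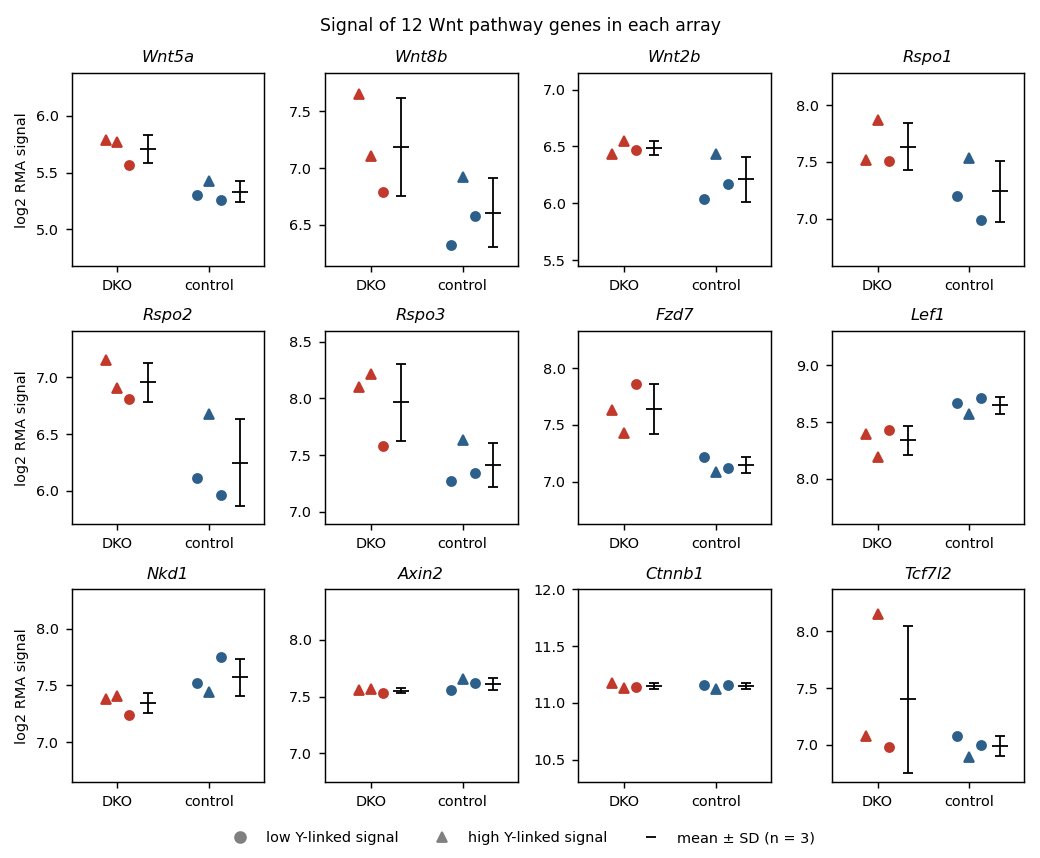
Log2 RMA signal (vertical axis, the same span in each panel) of 12 Wnt pathway genes in each array, DKO red and control blue, with the mean ± SD of 3 arrays beside the points. Triangles are arrays with high and circles arrays with low Y-linked signal. All DKO arrays lie above all control arrays for Wnt5a, Rspo2, Fzd7 and, narrowly, Wnt2b, and below them for Lef1 and Nkd1. Axin2 and Ctnnb1 differ little, and Tcf7l2 is high in DKO 2 alone.

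Secreted inhibitors lay on both sides of 0, with 0 called. Of 8 measured, 4 had higher and 4 lower means, with a median of -0.01 and a range of -0.22 to 0.07. Sfrp1, a Wnt-binding protein abundant in cortical progenitors, stood at 9.75, 9.66 and 9.51 in DKO and at 9.96, 9.81 and 9.82 in control arrays. Its groups did not overlap (-0.22 ± 0.08 SE, adjusted p 0.242), with -0.37 within the set of DKO 3 and -0.10 within the other. Sfrp2, a marker of the antihem at the lateral edge of the cortex, averaged 7.86 ± 0.11 in DKO and 7.98 ± 0.18 in control (SD, n = 3 each), and Sfrp5 5.42 ± 0.02 in DKO and 5.54 ± 0.10 in control (SD, n = 3 each). Frzb, Wif1 and the Dickkopf genes Dkk1, Dkk2 and Dkk3, which act on Wnt ligands or Lrp co-receptors, lay between -0.04 and 0.07. Dkk3 was 0.07 higher in DKO and differed by -0.04 without control 3, with adjusted p of 0.474 to 0.937 over 15 alternative fits.

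Of the core of the pathway, 3 genes were measured and 0 were called. Ctnnb1, which encodes beta-catenin, stood at 11.18, 11.13 and 11.14 in DKO and at 11.16, 11.12 and 11.16 in control arrays. The difference of 0.00 had an interval of -0.13 to 0.13, and beta-catenin is regulated mainly as protein, which arrays do not measure. Axin1, a scaffold of the destruction complex, averaged 7.91 ± 0.03 in DKO and 7.97 ± 0.05 in control (SD, n = 3 each). Apc, its partner, averaged 8.87 ± 0.06 in DKO and 9.01 ± 0.01 in control (SD, n = 3 each), a non-overlapping difference of -0.14 ± 0.06 (SE) with an adjusted p of 0.313, which was -0.22 within the set of DKO 3 and -0.10 within the other.

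Of the TCF/LEF factors, Lef1 was lower in each DKO array. Lef1, a partner and a target of beta-catenin, stood at 8.40, 8.19 and 8.43 in DKO and at 8.67, 8.57 and 8.71 in control arrays. The log2 fold change of -0.31 ± 0.08 (SE), a 1.24-fold lower signal, had an adjusted p of 0.115. It was -0.26 and -0.27 within the 2 sets of arrays. Over 15 alternative fits it lay between -0.35 and -0.23, with adjusted p between 0.0643 and 0.309. All 8 endothelial markers had lower means in DKO (0 called). Their mean level was 6.84 to 7.4 in DKO and 7.35 to 7.53 in control. It was lowest in DKO 2, which also had the lowest Lef1 and the lowest mean level of 9 meningeal markers (6.49). In DKO 3 the endothelial level of 7.4 lay within the control range. In that array Cdh5 and Cldn5 lay below all controls, Flt1 above them, and the other endothelial markers in between. Within the 2 sets 5 of the 8 endothelial markers were lower in both and 3 had opposite signs. Without DKO 2 Lef1 differed by -0.23 (adjusted p 0.196). Whether vessel cells contribute to the Lef1 difference was not tested.

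Tcf7l2 rested on a single array. It stood at 7.08, 8.15 and 6.98 in DKO and at 7.08, 6.89 and 7.0 in control arrays, so that only DKO 2 was high. Tcf7l2 is a strong marker of the thalamus in the embryonic brain. The log2 fold change was 0.41 ± 0.27 (SE, adjusted p 0.512), and 0.04 without DKO 2. In the same array Otx2, a factor of the choroid plexus and diencephalon, stood at 7.68, against 6.68 and 6.06 in DKO 1 and DKO 3 and 5.63 to 5.88 in control arrays. Whether tissue of these regions contributes to the Tcf7l2 value of DKO 2 was not tested. Tcf7l1, the progenitor factor that represses targets without beta-catenin, averaged 9.16 ± 0.08 in DKO and 9.13 ± 0.17 in control (SD, n = 3 each), its sign turning without DKO 3 (-0.01) and without control 2 (-0.07).

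Feedback targets had a median of -0.03, like all genes. Of 5 measured, 1 had a higher and 4 a lower mean, and 0 were called. Axin2, the most widely used readout of canonical signalling, stood at 7.56, 7.57 and 7.53 in DKO and at 7.56, 7.66 and 7.62 in control arrays. Its difference of -0.06 had an interval of -0.20 to 0.08, so that an increase above 0.08 on the log2 scale lay outside it, and a further, dimmer row for the gene differed by -0.04. Nkd1, an inhibitor induced by the pathway, stood at 7.38, 7.41 and 7.24 in DKO and at 7.52, 7.44 and 7.75 in control arrays. Its groups did not overlap (-0.23 ± 0.09 SE, adjusted p 0.288), with -0.39 within the set of DKO 3, control 1 and control 3 and -0.05 within the other. Without control 3 it was -0.14 (adjusted p 0.545). Znrf3, a ligase that removes Frizzled receptors, averaged 8.13 ± 0.04 in DKO and 8.02 ± 0.07 in control (SD, n = 3 each, adjusted p 0.474). Its relative Rnf43 averaged 5.90 ± 0.18 in DKO and 5.94 ± 0.20 in control (SD, n = 3 each), and Nkd2 differed by -0.01 with an interval of -0.16 to 0.14. Whether targets and hem ligands differed from each other in their response was not tested.

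**Figure D4:**
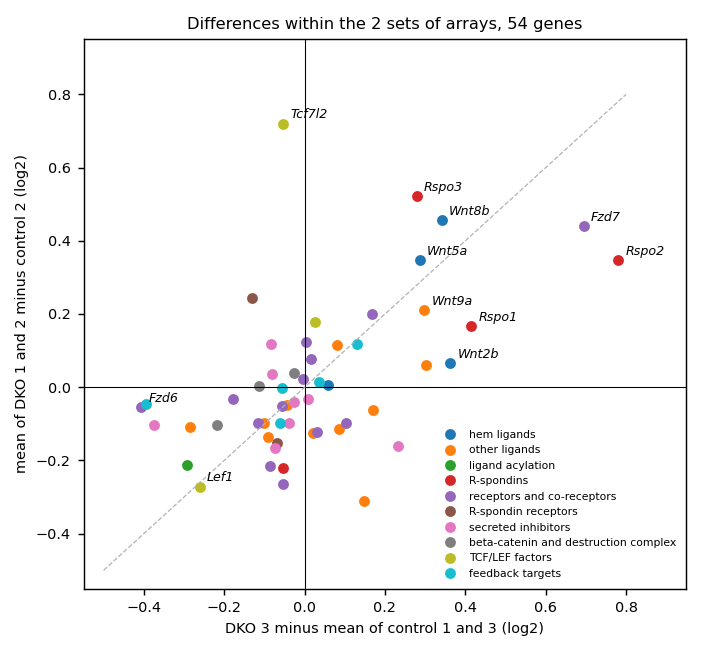
Difference (log2) between DKO and control within each of the 2 sets of arrays for 54 Wnt pathway genes, coloured by role. The horizontal axis is DKO 3 minus the mean of control 1 and 3, the vertical axis the mean of DKO 1 and 2 minus control 2, and the dashed line marks equal values. The sets share no array. Hem ligands, Fzd7 and R-spondins 1 to 3 lie above 0 on both axes, and Tcf7l2 on the vertical axis only.

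Across the 2 sets of arrays, which share no sample, 17 of the 54 members were higher in DKO in both, 22 were lower in both and 15 had opposite signs. The sign was the same for 72.2% of the members and for 58.8% of all genes tested. It was the same for all 4 hem ligands, all 4 R-spondins and all 5 feedback targets (2 higher and 3 lower in both). It was also the same for 4 of 8 secreted inhibitors, all lower in both. The shared sign was not always that of the pooled difference. Rnf43 was -0.033 pooled but 0.035 and 0.014 within the sets, and Dkk1 was 0.018 pooled but -0.027 and -0.04 within them. The sets were found in these data, and each leaves 1 residual degree of freedom of its own. With the Y-linked signal, which splits the arrays in the same way, as a covariate over all 6 arrays, limma gave Rspo2 a difference of 0.56 ± 0.12 (SE, adjusted p 0.093) and Wnt8b 0.39 ± 0.14 (SE, adjusted p 0.311). Lef1 differed by -0.27 ± 0.08 (SE, adjusted p 0.22) in that fit, and Fzd7 passed the threshold (adjusted p 0.0397).

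Further genes of the pathway were given as a second list. Of 53 listed, 51 had a row and 49 lay above the dim limit: 0 were called, 15 had higher and 34 lower means (6660 and 10064 of all 16724 genes), and the median was -0.06. At an unadjusted p under 0.05, 2 were higher and 12 lower (against 6.39% and 9.18% of all genes). The groups did not overlap for 1 above and 14 below (against 8.22% and 13.4% of all genes). Shisa2, which retains Frizzled in the endoplasmic reticulum, stood at 8.88, 8.99 and 9.09 in DKO and at 9.42, 9.21 and 9.40 in control arrays (-0.36 ± 0.08 SE, adjusted p 0.0833). Of the Groucho co-repressors that bind TCF factors, Tle3 stood at 9.32, 9.58 and 9.53 in DKO and at 9.81, 9.78 and 9.85 in control arrays (-0.33 ± 0.08 SE, adjusted p 0.0885). Its relative Tle4 stood at 9.04, 9.0 and 8.99 in DKO and at 8.76, 8.84 and 8.74 in control arrays, the opposite direction (0.23 ± 0.06 SE, adjusted p 0.115). Apc2, the neural relative of Apc, stood at 8.57, 8.58 and 8.60 in DKO and at 8.82, 8.75 and 8.98 in control arrays (-0.27 ± 0.07 SE, adjusted p 0.127). Cortical neuron markers, whose mean level was 9.20 to 9.34 in DKO and 9.44 to 9.68 in control arrays, had lower means in DKO too, and their part in these differences was not tested.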

How the data were processed

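Values were measured on Affymetrix whole-transcript arrays, 1 for each of 3 DKO and 3 control cortices. The authors deposited log2 values made by RMA, per the submitters' processing notes; RMA equalises the distributions of the arrays, so a change common to all transcripts would not show. The sources used here give no software version or probe build, and no detection call was at hand. Of 41345 rows, 23521 had 1 gene symbol in the platform annotation (RefSeq names of GRCm38.p6 matched by gene ID for 23328); only these were used, and each gene was read from its row with the highest mean. Genes below the 25th percentile of those rows were not tested. DKO was compared with control over all 16724 remaining genes with limma 3.58.1 in R 4.3.3 (lmFit, eBayes, two-sided, no covariate), with Benjamini-Hochberg adjustment and a threshold of 0.05. The 6 arrays limit the precision: 4 residual degrees of freedom, 4.44 from the prior, median residual SD 0.095. The code was tested on simulated data. Alternatives were other filters, an intensity trend, array weights, renormalization, the mean of a gene's rows, a replicate block, a Y-linked covariate and leaving out each array. Named genes are the targeted genes, members past the threshold, the 4 smallest p in each role and the 4 smallest among other pathway genes; others given by value (Wnt7a, Frizzleds, Lrp5, Lrp6, Ror1, Ror2, Nkd2, the dim members, Otx2 and markers) were chosen after their values were seen. The members, roles and lists were chosen with earlier results of these data known. Replicate numbers are not tied to litters, and deviations from the group means correlated at -0.10, 0.21 and 0.15 between same-numbered arrays, so the numbers were not taken as pairs.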

Additional observations from a re-analysis of the deposited data

How the results depend on the processing

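The count of members called was 0 higher and 0 lower in the reported fit, and 1 or 2 were higher under some alternatives: 1 (Fzd7) with a stricter filter, an intensity trend, repeated quantile normalization, arrays centred on the median or the Y-linked covariate, and 2 (Fzd7 and Wnt5a) with array weights. Leaving out 1 array gave 0 to 1 (Fzd7 without DKO 2, Rspo3 without DKO 3, Rspo2 without control 2). No member was called lower in any of the 15 alternatives. Of the other pathway genes, 1 was called lower with the stricter filter (Shisa2) and 3 with the trend (Gsk3b, Shisa2, Tle3). Over all genes the calls ranged from 121 to 323 higher and from 11 to 162 lower, against 228 and 60. With the replicate number as a block 0 members were called in either direction, the medians were 0.32 for hem ligands and 0.47 for R-spondins, and over all genes 176 were called higher and 24 lower. Medians of the hem ligands stayed between 0.27 and 0.42 and of the R-spondins between 0.34 and 0.60. Near 0, the median of the R-spondin receptors was 0.11 with the stricter filter, of the TCF/LEF factors 0.10 with the Y-linked covariate, and of all members -0.001 with centred arrays. Without 1 array the medians were -0.086 to -0.004 for the other ligands, -0.069 to 0.011 for receptors, -0.066 to 0.099 for the TCF/LEF factors and -0.035 to 0.009 for all members. Among the named genes signs turned for differences near 0: Ctnnb1 was -0.004 with array weights and -0.02 after renormalization, and -0.012 to 0.012 without 1 array; Rnf43 was 0.023 with the Y-linked covariate and -0.094 to 0.08 without 1 array; Dkk3 ranged from -0.043 to 0.174 and Tcf7l1 from -0.066 to 0.099 without 1 array. The cause of these changes was not tested. Dim rows, Wnt3a among them, limit what can be seen.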

Other observations

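Single arrays stood apart for few genes. In DKO 2, 6 of the 16724 genes lay more than 0.8 (log2) above the highest of the other 5 arrays: Ttr, Dbx1, Gm20815, Tcf7l2, Otx2 and Vmn1r14. Dbx1, a progenitor factor of the antihem, septum and diencephalon, stood at 7.31 in DKO 2, against 6.05 and 5.88 in the other DKO arrays and 5.76 to 6.20 in control arrays. In the same array 7 genes lay as far below all others, among them the erythroid genes Slc4a1, Car2 and Kel, the endothelial receptor gene Tek and the meningeal matrix gene Dcn. In DKO 1, 3 genes lay as far above all others, Acta2, Col1a1 and Thbs2, which mesenchymal cells express. The limit of 0.8 was chosen after seeing the data.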
